A study of Mus musculus with 15 samples.

Results

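The genes described are 10 members of the MHC class I antigen presentation pathway (B2m, H2-K1, H2-D1, Tap1, Tap2, Tapbp, Psmb8, Psmb9, Nlrc5 and Erap1) in mouse mammary tumours. They were taken by symbol, and all 10 were found among the 17271 genes of the deposited expression table. Every test was fitted on all 17271 genes.

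MHC class I molecules sit on the surface of nearly every nucleated cell and show CD8 T cells peptides made from the cell's own proteins. The proteasome cuts proteins into peptides, the TAP transporter carries them into the endoplasmic reticulum, Erap1 trims them, and tapasin (Tapbp) holds empty heavy chains at TAP until a peptide is bound. Each heavy chain needs the light chain beta 2-microglobulin to reach the surface, and many of these genes are known to be induced by interferon gamma and by the regulator Nlrc5.

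All samples were bulk poly(A) RNA-seq libraries of mouse mammary tumours, with the p53-null genotype on the BALB/c strain in every group. The 4 models were 2208L (8 samples), 2151R (4 samples), 2225L (2 samples) and T11 (1 sample). The 2208L titles mark 4 samples PBS, 3 samples 3day nt and 1 sample ROSEN, and the 2151R titles mark 2 samples NT or NT2 and the rest with other codes. The 2225L samples are a CP library whose title reads T-Vivo and a ROSEN library. The mice's age and sex and the meaning of these marks are not given in the sources used here, and nothing says whether samples came from separate animals, so p-values measure only the spread between these samples.

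Values are log2 values that the authors centred for each gene on an unstated reference. A value of 1 therefore lies 1 log2 unit above that gene's reference, and levels of different genes cannot be ranked. The values are not counts, so depth is unknown. The median over all genes ranged from -0.29 to 0.10 between samples. In bulk tumour RNA, fewer cells of a type and less RNA per cell cannot be told apart.

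Marker lists describe the tumours that these values come from. Of 8 tumour epithelium markers, 7 were lower and 1 was higher in 2151R than in 2208L (median difference -6.06 log2). The list's mean was -7.18 in T11, -3.27 to -2.30 in 2151R, 1.004 to 2.16 in 2208L and 3.21 to 3.36 in 2225L. These list means are taken after each gene was centred on its mean over the 15 samples. On the same scale Ptprc, which encodes the leukocyte antigen CD45, was 0.49 to 1.17 in 2151R, 1.21 in T11, -0.55 to 0.44 in 2208L and -2.72 to -1.53 in 2225L. A skeletal muscle list of 6 genes had means of 6.39 in 2151R replicate 3, 9.41 in 2208L replicate 6 and 8.89 in 2208L replicate 8, and -5.42 to 1.67 in the other 12 samples.

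Of the 10 genes, 7 lie in the major histocompatibility complex on chromosome 17 and span 1.348 Mb from Tapbp to H2-D1 (RefSeq positions, GRCm38.p6). Psmb9, Tap1, Psmb8 and Tap2 lie within 34.29 kb of each other, at chr17:34182030-34187330, chr17:34187556-34197225, chr17:34198195-34201454 and chr17:34204479-34216321. Tapbp is at chr17:33919478-33929290, H2-K1 at chr17:33996012-34000619 and H2-D1 at chr17:35263094-35267497. The other 3 are on other chromosomes: B2m at chr2:122147687-122153082, Nlrc5 at chr8:94434335-94527272 and Erap1 at chr13:74639573-74693205.

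Promoter windows from RefSeq (GRCm38.p6, 250 bases before to 50 after a start site) were found for 8 of the 10 genes. The stretches of 210 bases below are shown because B2m, H2-K1 and H2-D1 encode the chains of the class I molecule itself and the Tap1 stretch also lies in front of Psmb9, which starts 226 bases away on the opposite strand. Each is written 5′ to 3′ on the strand of its gene, from 190 bases before the start site. Capitals mark letter matches on either strand: GAAANNGAAA, the interferon-stimulated response element, TGACG, the core bound by CREB and ATF proteins, ATTGG, the reverse complement of the CCAAT box bound by NF-Y, and the NF-kB motif. They are at chr2:122147497-122147706 (B2m, plus strand), chr17:34000314-34000523 (H2-K1, minus strand, the more downstream of its start sites in the table), chr17:35262904-35263113 (H2-D1, plus strand) and chr17:34187366-34187575 (Tap1, plus strand).
B2m: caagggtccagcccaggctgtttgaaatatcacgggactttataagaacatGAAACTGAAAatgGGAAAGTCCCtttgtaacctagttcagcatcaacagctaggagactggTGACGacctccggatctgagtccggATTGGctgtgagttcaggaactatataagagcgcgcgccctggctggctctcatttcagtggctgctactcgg
H2-K1: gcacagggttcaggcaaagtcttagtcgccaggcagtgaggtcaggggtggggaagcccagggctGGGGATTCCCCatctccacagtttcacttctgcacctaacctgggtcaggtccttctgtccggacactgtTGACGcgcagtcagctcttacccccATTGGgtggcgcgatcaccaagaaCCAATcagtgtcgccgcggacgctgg
H2-D1: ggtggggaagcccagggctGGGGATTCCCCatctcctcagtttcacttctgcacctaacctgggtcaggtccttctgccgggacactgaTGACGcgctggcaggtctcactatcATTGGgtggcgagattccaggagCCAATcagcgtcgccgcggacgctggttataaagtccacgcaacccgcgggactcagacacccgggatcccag
Tap1: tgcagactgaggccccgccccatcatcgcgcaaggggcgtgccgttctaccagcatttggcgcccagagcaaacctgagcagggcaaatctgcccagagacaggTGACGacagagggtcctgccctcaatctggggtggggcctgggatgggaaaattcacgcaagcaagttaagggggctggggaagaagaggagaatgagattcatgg

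Motifs were searched on both strands of the whole windows, and a match is a match of letters only. Among all 32851 mouse windows, 3.44% held GAAANNGAAA, 20.8% TGACG, 37.4% ATTGG and 8.46% the NF-kB motif. In B2m the TGACG lay 78 bases and the ATTGG 53 bases before the start, in the H2-K1 stretch 55 and 30, and in H2-D1 101 and 76, so ATTGG began 25 bases after TGACG in all 3. That spaced pair was found in 31 windows (0.0944%) of 27 genes. The spacing was read from these 3 promoters, so their own matches are a description. The NF-kB motif lay 126 bases before the B2m start, next to a GAAANNGAAA match at 139, and it matched H2-K1 and H2-D1 on both strands at overlapping positions. In the Tap1 stretch the only match was TGACG, 86 bases before the Tap1 start and 144 before the Psmb9 start. The Erap1 window held GAAANNGAAA on the reverse strand 4 bases before its start.

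The pathway did not move as a block between models. In 2151R the light chain gene B2m was 2.03-fold higher than in 2208L, while the transporter genes Tap1 and Tap2, the tapasin gene Tapbp and the immunoproteasome gene Psmb8 were lower, Psmb8 most (-1.62 log2). Tap2 and Tapbp lost that call with the PBS samples alone as 2208L, and also without the 3 libraries high in muscle genes. Tap1 and Psmb8 kept it in both fits. In 2225L, Nlrc5, Erap1 and Tapbp were lower than in 2208L. Both 2225L samples lay below every 2208L sample for 1 of the 10 genes, Erap1, against 16.0% of all genes. Without the CP sample the differences were -0.55 for Nlrc5 and -0.30 for Tapbp. By the mean of each model, 2151R was the lowest of the 4 for Tap1 and Tap2 and 2225L for B2m, Nlrc5 and Erap1, with either 2225L sample left out as well. For H2-K1, H2-D1, Tapbp, Psmb8 and Psmb9 the 2225L samples disagreed: the CP sample lay below every sample of the other models, and the ROSEN sample lay above every 2151R sample and T11. Within 2208L, 7 of the 10 genes were lower in the PBS than in the 3day nt samples, with differences of -1.54 to -0.56 log2. The PBS titles begin with DH and the 3day nt titles with KM, and their library numbers fall in separate ranges, so the subset and the set of libraries cannot be told apart.

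With limma and an adjusted p under 0.05, 2151R against 2208L gave 1 of the 10 genes higher, against 26.1% of all genes, and 4 lower, against 22.7%. Their median difference was -0.50, and that of all genes 0.10. For 2225L against 2208L, 0 were higher (15.6% of all genes) and 3 lower (17.3%), with a median of -0.66 against -0.04. For 2225L against 2151R, 2 were higher (22.8% of all genes) and 3 lower (25.8%). These 3 comparisons share samples. For 2208L PBS against 3day nt, 0 were higher (17.4% of all genes) and 7 lower (16.5%), with a median of -0.72 against -0.05. No unadjusted p under 0.05 was reached by a gene higher in 2225L than in 2208L or in PBS than in 3day nt (0 and 0 genes). The 7 of 10 genes lower in PBS stand furthest from the share among all genes, and the counts between models lie nearer to theirs.

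**Figure D1:**
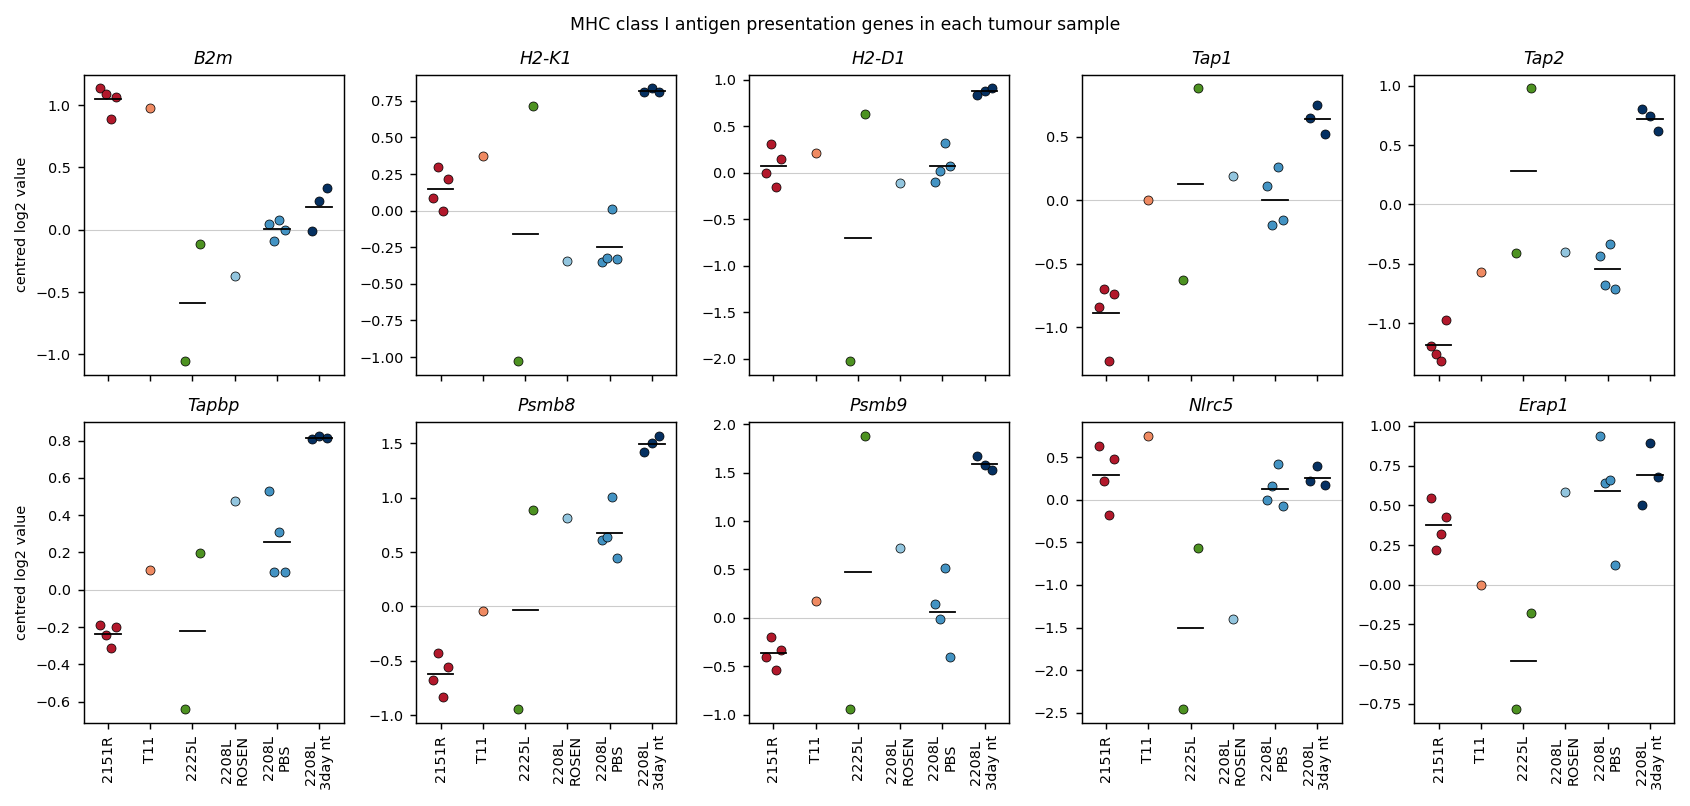
Centred log2 value (y axis) of each of the 10 genes in each of the 15 samples, by model and 2208L subset (x axis), with a bar at the mean of groups of 2 or more. The 4 samples of 2151R lie from 0.89 to 1.14 for B2m and from -0.83 to -0.43 for Psmb8, while the 3day nt samples of 2208L are at 1.42 to 1.57 for Psmb8.

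**Figure D2:**
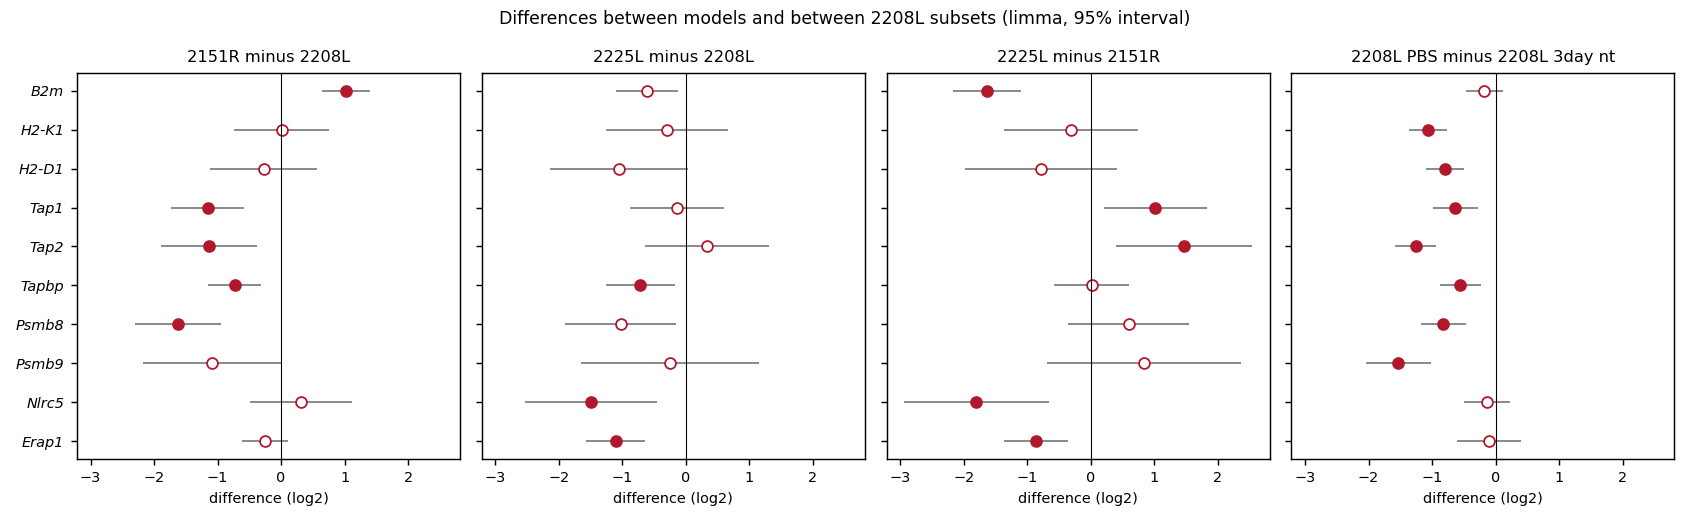
Difference in log2 units (x axis) of each gene in 4 comparisons, with the 95% interval from limma; filled points have an adjusted p under 0.05. B2m is higher in 2151R than in 2208L by 1.02 and Psmb8 lower (-1.62), and 7 genes are lower in PBS than in 3day nt samples.

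B2m encodes beta 2-microglobulin, the light chain shared by all class I molecules. Its values were 1.14, 1.09, 0.89 and 1.07 in 2151R, 0.98 in T11, -1.06 (CP) and -0.12 (ROSEN) in 2225L, and from -0.37 to 0.34 with a median of 0.02 in 2208L. All 2151R samples and T11 lay above every 2208L and 2225L sample. The difference of 2151R from 2208L was 1.02 (SE 0.17, limma adjusted p 0.0003093), and that of 2225L from 2151R was -1.63 (SE 0.25, adjusted p 0.0001287). Against 2208L, 2225L differed by -0.61 (95% interval -1.10 to -0.13, adjusted p 0.0514), which missed the threshold. B2m took its order from 2151R and T11 down to 2208L and 2225L, and the T11 value lay within the range of 2151R.

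Within 2208L, B2m was 0.05, -0.09, 0.07 and 0.00 in the PBS samples, -0.01, 0.23 and 0.34 in the 3day nt samples and -0.37 in the ROSEN sample. PBS and 3day nt overlapped, and their difference of -0.18 (95% interval -0.46 to 0.11) did not pass the test (limma adjusted p 0.283).

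H2-K1 and H2-D1 encode the classical heavy chains that bind the peptide. H2-K1 was 0.08, 0.30, 0.00 and 0.21 in 2151R, 0.37 in T11, -1.03 (CP) and 0.72 (ROSEN) in 2225L, and from -0.35 to 0.84 with a median of -0.16 in 2208L. H2-D1 was 0.00, 0.31, -0.15 and 0.15 in 2151R, 0.21 in T11, -2.03 (CP) and 0.63 (ROSEN) in 2225L, and from -0.11 to 0.91 with a median of 0.20 in 2208L. For both genes 2151R lay inside the range of 2208L or overlapped it, and the 2225L samples lay on opposite sides of 2151R. Against 2208L, 2151R differed by 0.01 for H2-K1 (95% interval -0.74 to 0.75) and by -0.28 for H2-D1 (-1.12 to 0.57), with limma adjusted p of 0.986 and 0.583. The higher B2m of 2151R thus came without a called difference in either heavy chain.

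The heavy chains separated the 2208L subsets. H2-K1 was -0.35, -0.33, 0.01 and -0.33 in PBS, 0.81, 0.84 and 0.81 in 3day nt and -0.34 in ROSEN. H2-D1 was -0.10, 0.02, 0.32 and 0.08 in PBS, 0.84, 0.88 and 0.91 in 3day nt and -0.11 in ROSEN. Every PBS sample and the ROSEN sample lay below every 3day nt sample for both genes. The differences of PBS from 3day nt were -1.07 for H2-K1 (SE 0.12, limma adjusted p 0.003686) and -0.80 for H2-D1 (SE 0.13, adjusted p 0.00678).

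The heavy chains are near-identical in places, which limits how surely their reads were told apart. In the reference transcripts (GENCODE, GRCm38), 20.3% of the 31-base stretches of H2-K1 and 27.6% of those of H2-D1 also occur in another gene, most often in each other (14.3% and 13.6%). That share was 0 for B2m, Psmb8, Psmb9 and Nlrc5 and at most 5.54% for the remaining 4. The reference is the C57BL/6J genome, whose H2 haplotype differs from that of BALB/c, and its part in these values was not tested.

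Tap1 and Tap2 encode the subunits of the TAP peptide transporter. Tap1 was -0.84, -0.70, -1.27 and -0.74 in 2151R, 0.00 in T11, -0.63 (CP) and 0.88 (ROSEN) in 2225L, and from -0.19 to 0.75 with a median of 0.22 in 2208L. Tap2 was -1.19, -1.26, -1.32 and -0.98 in 2151R, -0.57 in T11, -0.41 (CP) and 0.98 (ROSEN) in 2225L, and from -0.71 to 0.80 with a median of -0.36 in 2208L. The 4 samples of 2151R lay below every 2208L sample for both subunits. They were lower than 2208L by limma, Tap1 at -1.15 (SE 0.27, adjusted p 0.002916) and Tap2 at -1.14 (SE 0.35, adjusted p 0.0162). For 2225L against 2151R the differences were 1.01 (adjusted p 0.0397) and 1.47 (adjusted p 0.0258). Without the ROSEN sample of 2225L both calls were lost (0.26 and 0.78), and the Tap1 call was also lost without replicate 1, 3 or 4 of 2151R.

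In the 2208L subsets, Tap1 was 0.11, -0.19, 0.26 and -0.16 in PBS, 0.65, 0.75 and 0.52 in 3day nt and 0.19 in ROSEN. Tap2 was -0.44, -0.68, -0.33 and -0.71 in PBS, 0.80, 0.74 and 0.62 in 3day nt and -0.40 in ROSEN. PBS lay wholly below 3day nt for both. The difference of Tap2, -1.26 (SE 0.13, limma adjusted p 0.003054), was larger than that of Tap1, -0.63 (SE 0.15, adjusted p 0.0198), and the gap between the subunits was not tested. Leaving out 2208L replicate 3, 6 or 8 gave Tap1 differences of -0.57, -0.63 and -0.69 that no longer passed. The lower Tap2 of 2151R depended on these subsets: against the PBS samples alone it was -0.65 (adjusted p 0.0771), while Tap1 kept its call at -0.89. The Tap2 call was also lost without the 3 muscle-rich libraries (-0.84, adjusted p 0.0869). A limma fit of only the samples titled NT, nt or PBS lost it too (-1.15, adjusted p 0.0893).

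Tapbp encodes tapasin, which bridges TAP and the empty heavy chain. It was -0.19, -0.24, -0.31 and -0.20 in 2151R, 0.10 in T11, -0.64 (CP) and 0.20 (ROSEN) in 2225L, and from 0.10 to 0.83 with a median of 0.50 in 2208L. All 2151R samples lay below all 2208L samples, and T11 lay at the low end of 2208L. The limma difference from 2208L was -0.73 in 2151R (SE 0.19, adjusted p 0.006694) and -0.72 in 2225L (SE 0.25, adjusted p 0.0409). Against 2208L PBS alone neither passed (-0.49, adjusted p 0.0636, and -0.48, adjusted p 0.132). Without the CP sample the 2225L difference was -0.30 (adjusted p 0.461), and it also missed the threshold without 2208L replicate 2, 6, 7 or 8, at -0.71, -0.67, -0.67 and -0.67. Without the 3 muscle-rich libraries the differences were -0.60 in 2151R (adjusted p 0.0542) and -0.61 in 2225L (adjusted p 0.0966). Within 2208L, Tapbp was 0.53, 0.10, 0.31 and 0.10 in PBS and 0.81, 0.83 and 0.81 in 3day nt, a difference of -0.56 (SE 0.14, adjusted p 0.0231). That call was lost without replicate 3, 6, 7 or 8, where the difference was -0.56 to -0.50, and the ROSEN sample was at 0.48.

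Psmb8 and Psmb9 encode catalytic subunits that replace their constitutive counterparts in the immunoproteasome. Psmb8 was -0.68, -0.43, -0.83 and -0.56 in 2151R, -0.05 in T11, -0.94 (CP) and 0.88 (ROSEN) in 2225L, and from 0.45 to 1.57 with a median of 0.91 in 2208L. Psmb9 was -0.41, -0.20, -0.53 and -0.33 in 2151R, 0.17 in T11, -0.94 (CP) and 1.88 (ROSEN) in 2225L, and from -0.41 to 1.67 with a median of 0.62 in 2208L. For Psmb8, 2151R, T11 and the CP sample of 2225L lay below every 2208L sample, while for Psmb9 the 2151R range overlapped that of 2208L. Psmb8 was lower in 2151R than in 2208L by limma (-1.62, SE 0.31, adjusted p 0.0007677), which was the lowest of the 10 differences. Psmb9 missed the threshold at -1.08 (95% interval -2.17 to 0.00, adjusted p 0.0909) and passed it in the fit of those 2 models alone (adjusted p 0.0327). It depended on the 2208L subsets, at -0.43 (adjusted p 0.516) against PBS alone and -1.96 (adjusted p 0.0204) against 3day nt alone. Without the 3 muscle-rich libraries Psmb9 was at -0.73 (adjusted p 0.322). In 2225L against 2208L, Psmb8 was at -1.03 (adjusted p 0.0667), and with the library prefix as a covariate it passed (-1.23, adjusted p 0.0437). That Psmb8 difference was -0.12 without the CP sample and -1.94 without the ROSEN sample.

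The subset difference in 2208L was largest for Psmb9 among the 10 genes. Psmb9 was 0.14, -0.01, 0.51 and -0.41 in PBS, 1.67, 1.58 and 1.53 in 3day nt and 0.72 in ROSEN, a difference of -1.54 (SE 0.22, limma adjusted p 0.005172). Psmb8 was 0.61, 0.64, 1.003 and 0.45 in PBS, 1.42, 1.501 and 1.57 in 3day nt and 0.81 in ROSEN, a difference of -0.82 (SE 0.15, adjusted p 0.009756). No PBS sample reached the 3day nt range for either gene, and the ROSEN sample lay between the subsets for Psmb9 and within PBS for Psmb8.

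Erap1 encodes the aminopeptidase that trims peptides in the endoplasmic reticulum. It was 0.55, 0.22, 0.32 and 0.42 in 2151R, 0.00 in T11, -0.78 (CP) and -0.18 (ROSEN) in 2225L, and from 0.12 to 0.94 with a median of 0.65 in 2208L. Both 2225L samples lay below every other sample. Erap1 was lower in 2225L than in 2208L (-1.11, SE 0.21, limma adjusted p 0.00157) and than in 2151R (-0.86, SE 0.23, adjusted p 0.00859). It kept the call against 2208L without either 2225L sample (-1.41 to -0.81 over the fits that each left out a sample). Against 2151R the call was lost without the CP sample (-0.56, adjusted p 0.11) and with the leukocyte marker mean as a covariate (-0.57, adjusted p 0.0777). Between PBS and 3day nt it differed by -0.10 (95% interval -0.60 to 0.40, adjusted p 0.727), with overlapping values.

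Nlrc5 encodes the transactivator of class I genes, which acts through a promoter module that RFX, CREB or ATF and NF-Y proteins bind. It was 0.64, 0.22, -0.17 and 0.48 in 2151R, 0.75 in T11 and -2.45 (CP) and -0.56 (ROSEN) in 2225L. In 2208L it was 0.00, 0.16, 0.42 and -0.08 in PBS, 0.22, 0.39 and 0.17 in 3day nt and -1.40 in ROSEN. Both 2225L samples and the 2208L ROSEN sample lay below all the rest. The limma difference was -1.50 for 2225L against 2208L (SE 0.48, adjusted p 0.0295) and -1.80 against 2151R (SE 0.53, adjusted p 0.0126). Without the CP sample of 2225L these were -0.55 (adjusted p 0.463) and -0.86 (adjusted p 0.226). The call against 2208L was also lost with the library prefix (CP or ROSEN) as a covariate (-1.37, adjusted p 0.0678), in a fit of the 2 models alone (adjusted p 0.0632) and without the 3 muscle-rich libraries (-1.43, adjusted p 0.0634). With the leukocyte marker mean as a covariate, the difference from 2151R was -0.96 (adjusted p 0.147). PBS and 3day nt differed by -0.13 (95% interval -0.49 to 0.23, adjusted p 0.516), so the gene's transcript was not among those that separated the subsets.

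The CP and ROSEN samples of 2225L stood far apart in this pathway. The ROSEN sample was higher for all 10 genes, against 53.5% of all genes, and by more than 1 log2 unit for 7 of them, against 18.6% of all genes. The median gap was 1.63 against 0.08 for all genes, from 0.60 for Erap1 to 2.66 for H2-D1 and 2.82 for Psmb9. There is 1 sample of each, so no test was made. The 9-gene T cell list was at -2.27 in the CP and 1.11 in the ROSEN sample, the macrophage list at -2.03 and -0.78, Ptprc at -2.72 and -1.53, and the tumour epithelium list at 3.21 and 3.36. Also higher in the ROSEN sample were the dendritic (-1.85 and -0.58), NK and cytotoxic (-1.71 and 0.09) and adipocyte lists (-3.41 and 1.23). Lower there were the endothelial (0.31 and -0.83) and skeletal muscle lists (0.88 and -2.07). The neutrophil (-2.52 and -2.69), B cell (0.52 and 0.65) and fibroblast lists (-1.02 and -0.86) differed little. The library prefix and the tumour cannot be told apart here, and the part of the marker genes in the gap was not tested.

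Marker genes of several cell types also differed between models beside these genes, in both directions. Against 2208L, macrophage markers were higher for 7 of 10 genes and lower for 1 in 2151R (range of the list mean 0.40 to 0.84, against -0.47 to 0.32), and lower for 6 of 10 in 2225L (-2.03 to -0.78). T cell markers were higher for 2 of 9 in 2151R (0.36 to 0.93, against -2.37 to 1.13 in 2208L) and 0 of 9 passed in either direction in 2225L (-2.27 to 1.11, 1 higher at an unadjusted p under 0.05). In 2151R, 3 of 6 NK and cytotoxic markers were higher, while 3 of 7 dendritic cell markers were lower and 1 higher, and 3 of 5 neutrophil markers were lower (median difference -1.82). Outside the leukocytes, 5 of 5 endothelial, 3 of 5 fibroblast and 2 of 5 adipocyte markers were higher in 2151R. In 2225L, 5 of 5 neutrophil markers (median difference -3.57) and 3 of 7 dendritic cell markers were lower, and 2 of 4 B cell markers were higher. Their part in the differences of the 10 genes was not tested list by list. Since the values are centred, whether a marker was absent cannot be read from them. The leukocyte covariate was the mean of 24 markers, Ptprc and those of the macrophage, T cell and B cell lists. It held no NK and cytotoxic, dendritic cell or neutrophil markers. With the mean of 24 leukocyte markers as a covariate, 7 of the 10 genes were lower in 2151R than in 2208L, against 27.5% of all genes, with H2-K1 at -0.64 (limma adjusted p 0.0173), H2-D1 at -0.98 (adjusted p 0.00637) and Psmb9 at -2.08 (adjusted p 1.209e-05) added to the 4.

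Several marker lists moved with the PBS and 3day nt subsets of 2208L. In PBS, 5 of 9 T cell markers were lower (median difference -1.95, list mean -2.37 to 0.39 against 0.47 to 1.13), 4 of 7 dendritic cell markers were lower (-1.34 to 0.56 against 0.98 to 1.81) and 4 of 5 neutrophil markers were higher (0.70 to 2.23 against -0.24 to 1.13). Of the other leukocyte lists, 2 of 6 NK and cytotoxic, 1 of 4 B cell and 1 of 10 macrophage markers were lower. Ptprc differed by 0.03 and did not pass the test. The muscle list was at 9.41, 0.65 and 8.89 in the 3day nt samples and from -4.62 to 1.67 in PBS. The adipocyte list was at 1.33 to 1.68 in 3day nt and -4.24 to 1.68 in PBS, with a median difference of -4.73. Of its 5 markers 0 passed, and 3 were lower in PBS at an unadjusted p under 0.05.

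Every PBS sample lay below every 3day nt sample for 7 of the 10 genes, against 23.8% of all genes. These are the 7 genes that limma called lower in the same samples, so the separation describes those calls and adds no further support. With the leukocyte marker mean as a covariate, 0 of the 10 genes passed by limma, with H2-K1 at -0.85 (adjusted p 0.0652) and Psmb9 at -0.95 (adjusted p 0.0629), and 155 genes passed in all. At an unadjusted p under 0.05, 5 of the 10 were lower there. Without the muscle-rich 3day nt replicates 6 and 8, which leaves 1 sample of that subset, the differences were -1.09 for H2-K1, -1.28 for Tap2 and -1.52 for Psmb9. None of the 10 passed there (lowest adjusted p 0.0991, 6 lower at an unadjusted p under 0.05), and 98 genes passed in all.

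Other genes of the pathway came from lists of known members. Against 2208L, 2151R had 1 of 15 other class I heavy chain genes higher and 5 lower, and 2225L had 0 higher and 6 lower. H2-T23, which encodes the Qa-1 molecule, was lower in 2151R at -1.59 (SE 0.25, limma adjusted p 0.0001463). Cd1d1, which presents lipids to NKT cells, was lower in 2151R at -0.84 (adjusted p 0.0053) and in 2225L at -3.93 (SE 0.28, adjusted p 4.498e-07). H2-Q7, a Qa-2 gene, was lower in 2225L at -2.78 (SE 0.55, adjusted p 0.00179), and like other H2 genes it shares sequence with near relatives. In 2208L PBS against 3day nt, 2 of the 15 were higher and 8 lower, H2-T23 among them at -0.85 (adjusted p 0.00459).

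Chaperones and peptidases around the loading complex gave few calls. Of 10 such genes, 2151R had 1 higher and 1 lower than 2208L. Tapbpl, which encodes the tapasin-related peptide editor TAPBPR, was lower at -1.34 (SE 0.19, limma adjusted p 4.966e-05), and Tpp2, a cytosolic peptidase, was higher by 0.69 (adjusted p 0.00445). In 2225L 0 of the 10 passed (2 lower at an unadjusted p under 0.05), with Npepps at -0.55 (adjusted p 0.0981) and the chaperone gene Canx at -0.50 (adjusted p 0.103). In PBS against 3day nt, 2 were higher and 0 lower, with a median difference of 0.21.

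Proteasome genes outside the 10 separated the 2208L subsets as well. All 4 partners of the inducible proteasome were lower in PBS than in 3day nt, among them Psmb10, the remaining catalytic immunosubunit (-1.43, SE 0.19, limma adjusted p 0.00469), Pomp, the assembly factor (-1.18, adjusted p 0.00576), and Psme1, a subunit of the PA28 activator (-0.71, adjusted p 0.0124). Of 16 genes listed as constitutive proteasome, 11 were also lower and 0 higher, with a median of -0.61. This list also holds core subunits shared with the immunoproteasome, and the activator genes Psme3 and Psme4. Between 2151R and 2208L, 0 of the 4 partners passed, adjusted or not, with Pomp at -0.64 (adjusted p 0.103) and Psmb10 at -0.62 (adjusted p 0.23). Of the 16 constitutive genes, 2 were higher and 1 was lower there, with Psma3 at 0.68 (adjusted p 0.0109) and Psmb4 at -1.28 (adjusted p 0.00795). In 2225L against 2208L, 0 of the 4 partners passed, 1 of them lower at an unadjusted p under 0.05 (Psmb10 at -1.33, adjusted p 0.0729, Psme1 at 0.55, adjusted p 0.303). Of the 16, only Psme4, the PA200 activator, was called, lower at -0.88 (adjusted p 0.0079), and Psma7 was at 0.78 (adjusted p 0.0681).

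Regulators of class I genes were tested as a list of 16. In 2151R against 2208L, 5 were higher and 2 lower. Nfkb1, which encodes the p105 and p50 forms of NF-kB, was higher by 2.02 (SE 0.16, limma adjusted p 2.586e-07), and Rfxap, a subunit of the RFX complex, was lower at -1.38 (SE 0.15, adjusted p 6.995e-06). In 2225L against 2208L, 1 was higher and 4 lower. Irf1, an interferon-induced activator of class I promoters, was lower at -1.59 (SE 0.24, adjusted p 0.0002538), and Suz12, a Polycomb subunit, at -0.98 (adjusted p 0.00165). In PBS against 3day nt, 0 were higher and 1 lower, which was Irf1 at -0.50 (adjusted p 0.0253).

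Of 10 genes of interferon gamma reception and signalling, 2151R had 3 higher and 2 lower than 2208L, and 2225L had 0 higher and 5 lower. Jak1, a receptor-associated kinase, was higher in 2151R by 1.13 (SE 0.18, limma adjusted p 0.0001754). Stat2, a transcription factor of the interferon response, was lower in 2225L at -1.49 (SE 0.27, adjusted p 0.0009755). Socs1, a feedback inhibitor, was at 1.28 (adjusted p 0.063) and -1.57 (adjusted p 0.0969). In PBS against 3day nt, 1 was higher and 2 lower, with Jak1 higher by 0.57 (adjusted p 0.0257) and Socs1 lower at -1.57 (adjusted p 0.00997).

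Interferon gamma targets outside class I were a list of 13. In 2225L against 2208L, 12 were lower, among them Cd274, the gene of PD-L1 (-3.25, SE 0.44, limma adjusted p 0.0001108), and the chemokine gene Cxcl10 (-3.14, SE 0.64, adjusted p 0.00215). In 2151R against 2208L, 2 were higher and 6 lower, with the GTPase gene Irgm1 at -2.90 (SE 0.18, adjusted p 2.081e-08) and Cd74, the class II invariant chain, at -2.07 (SE 0.34, adjusted p 0.0001999). In PBS against 3day nt, where 7 of the 10 class I genes were lower, 1 of the 13 was lower and 0 higher. That gene was Cxcl10 (-1.12, adjusted p 0.0247). The difference between the lists was not tested.

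**Figure D3:**
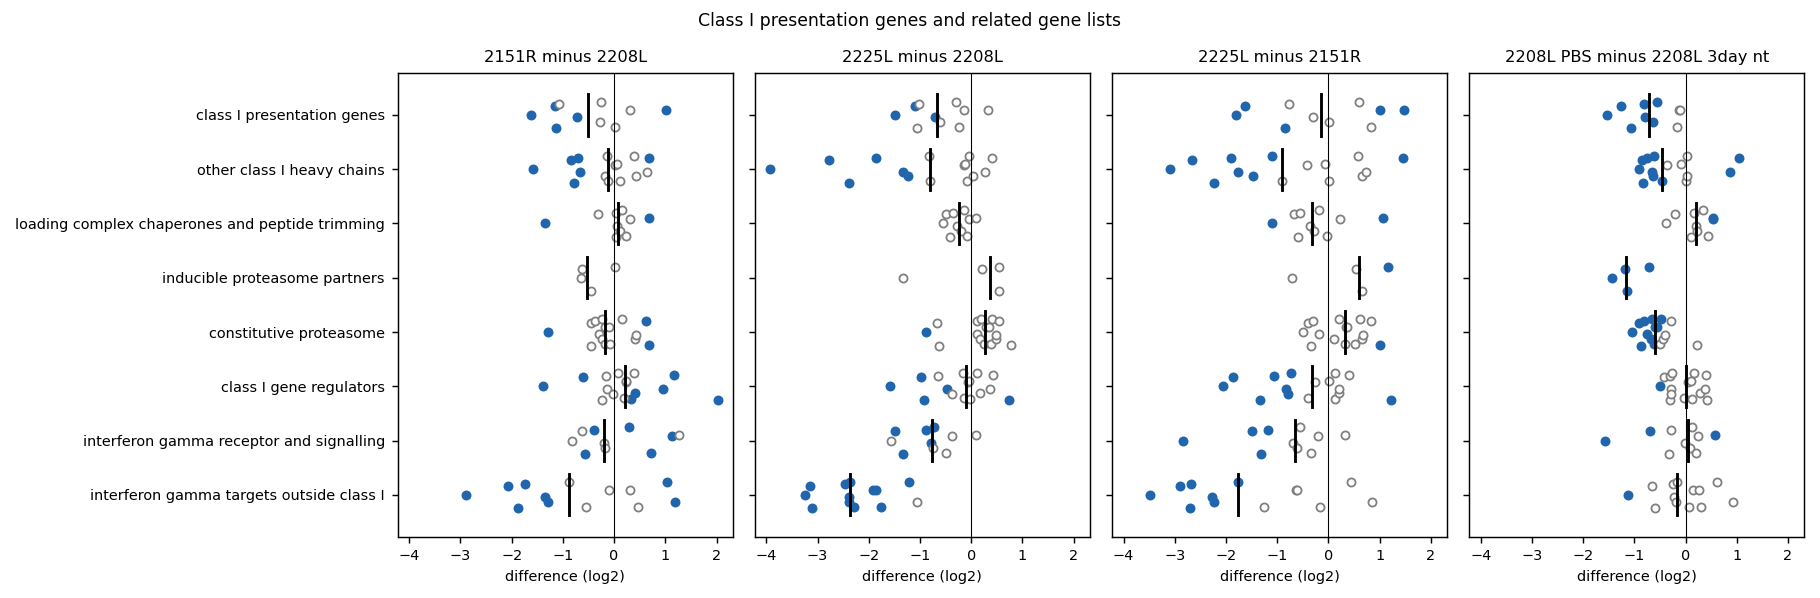
Differences in log2 units (x axis) of the 10 genes and of each related gene list (rows) in 4 comparisons; each point is a gene, filled where the limma adjusted p is under 0.05, and bars mark list medians. In PBS against 3day nt, the inducible proteasome partners (median -1.17) and constitutive proteasome genes (-0.61) lie left of 0, and the targets of interferon gamma outside class I have a median of -0.16.

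Values relative to B2m in the same sample show how unevenly the genes moved between models. Psmb8 minus B2m was -1.82 to -1.52 in 2151R, -1.02 in T11, 0.12 and 0.9999 in 2225L and 0.45 to 1.43 in 2208L. Tap1 minus B2m was -2.16 to -1.78 in 2151R, -0.98 in T11, 0.43 and 1.0002 in 2225L and -0.16 to 0.66 in 2208L. H2-K1 minus B2m was -1.05 to -0.79 in 2151R, -0.61 in T11, 0.03 and 0.83 in 2225L and -0.40 to 0.82 in 2208L. For all 3 genes, 2151R and T11 lay below the other 10 samples. Tap2 minus B2m split the samples the same way, at -2.35 to -2.04 in 2151R, -1.55 in T11 and -0.71 or above elsewhere. H2-D1 minus B2m did not: it was -1.14 to -0.78 in 2151R, -0.77 in T11 and -0.97 and 0.75 in 2225L. In 2208L the H2-D1 ratio was -0.15 to 0.85. Such a ratio depends on each gene's reference, so only its differences between samples can be read.

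**Figure D4:**
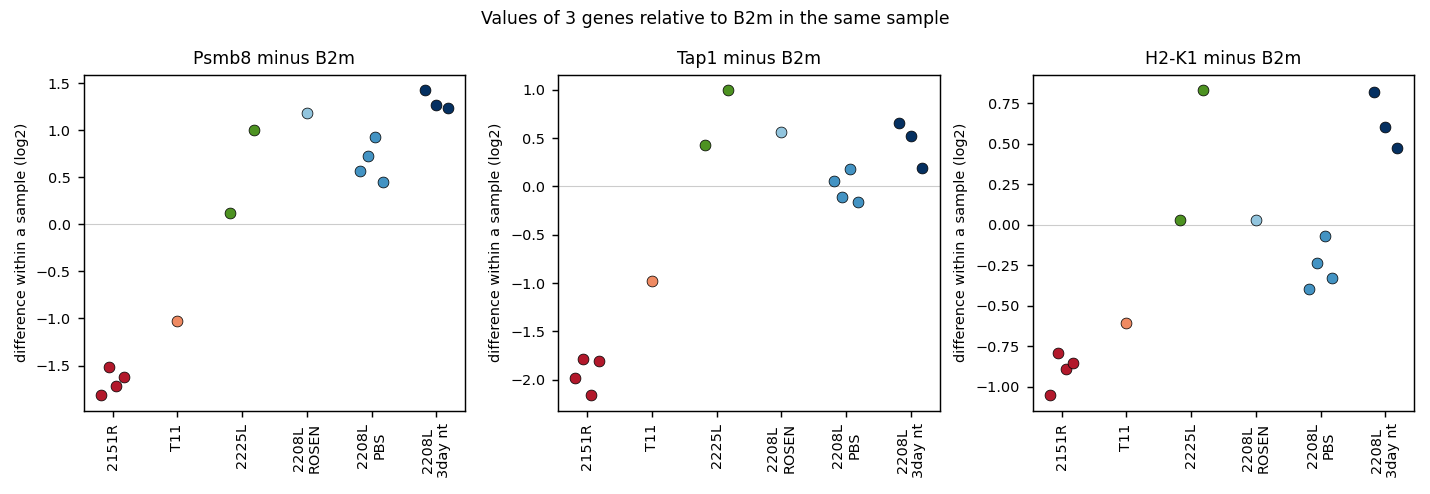
Value of Psmb8, Tap1 and H2-K1 minus that of B2m in the same sample (y axis, log2) by model and 2208L subset (x axis), with 1 point per sample. The 2151R samples lie from -1.82 to -1.52 for Psmb8, and the 2208L samples from 0.45 to 1.43.

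Across the 15 samples, correlations between the 10 genes ranged from -0.47 to 0.94 (Pearson, as a description over samples that share models). The highest were Tapbp with Psmb8 (0.94), Tap1 with Tap2 and with Psmb8 (0.92 each), Tap2 with Psmb9 (0.90) and Tap1 with Psmb9 (0.90), the pair that share the stretch shown above. H2-K1 with H2-D1 reached 0.89, beside the sequence they share. B2m was lowest with Tap2 (-0.47) and Tap1 (-0.42) and highest with Nlrc5 (0.77).

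The 8 genes outside the list whose values were most like the mean of the 10 over the 15 samples were Ltb (Pearson 0.95), which encodes lymphotoxin beta, G530012D18Rik (0.94), Gm37962 (0.94), Ifngr2 (0.91), a subunit of the interferon gamma receptor, Vasp (0.91), Gm4459 (0.91), Zdhhc7 (0.91) and Prr15 (0.90). By Spearman correlation 3 of these 8 were still among the 8 most alike. Ltb was -2.70 and 1.76 in the CP and ROSEN samples of 2225L, -0.52 to 0.60 in 2208L PBS and 1.11 to 1.99 in 3day nt. Ifngr2 was -0.93 and 1.28, 0.08 to 0.54 and 1.02 to 1.10 in the same groups.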

How the data were processed

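For 17271 genes in 15 samples the authors deposited log2 values, each gene centred on a median, per the name of their table; the offset, the reference set and the scaling between samples are not given in the sources used here. STAR, Salmon and the mm10 genome are named in the submitters' processing notes, and poly(A) selection in the labels' protocols. The table has 0 columns outside the series. In 727 genes, samples shared an identical value; none of the 10 genes is among them.

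The titles give the model that defines each group and, for 2208L, the marks PBS, 3day nt and ROSEN. Replicates are numbered in accession order and pair no samples. Models were compared with limma 3.58.1 (R 4.3.3), with a mean per model and a shared spread over all 15 samples, and PBS with 3day nt in a fit of those 7 samples. P-values were adjusted over all genes by the Benjamini-Hochberg method, with a threshold of 0.05. The code was tested on simulated data. The 10 genes and all lists were chosen with earlier results of these data known. The text names the 10 genes, the 8 most correlated with their mean, and of each pathway list the 2 genes with the largest absolute difference of 2151R and the 2 of 2225L from 2208L; Irf1 and Cxcl10 between PBS and 3day nt are named as the only gene of their lists called. Sequences came from RefSeq (GRCm38.p6). T11 and the ROSEN samples have no replicate and were described by values. Alternatives in scaling, variance model, gene filter, threshold, covariate and samples were computed.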

Additional observations from a re-analysis of the deposited data

Results flagged for a closer look

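Among 33 groups of 4 to 8 samples checked for a sample far from the others, 3 held one, and chance gives about 1 in 20 (1.65 expected). The groups overlap, since the PBS samples are part of 2208L. H2-K1 was 0.0078 in 2208L replicate 4, and -0.3491 to -0.3255 in the other PBS samples. Nlrc5 was -1.4047 in 2208L replicate 1, the ROSEN sample, and -0.0762 to 0.4249 in the other 7 samples of 2208L. The mean of the 10 genes, taken after each gene was centred on its mean over the 15 samples, was -0.4678 in 2151R replicate 3, which is also the 2151R sample high in skeletal muscle genes, and -0.2198 to -0.1761 in the other 3. No explanation was tested.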

How the results depend on the processing

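No paired analysis was possible because no replicate numbers are shared between groups in these titles. The table holds no counts, T11 has 1 sample and 2225L has 2, so precision rests on the spread between samples. The causes of the changes below were not tested. Centring each sample on its median, quantile normalization, robust variances and both gene filters kept every count within 1.5 times its value.

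For 2151R against 2208L, requiring a difference of 1 log2 unit left 5151 genes of all. The number of the 10 genes lower was 2 without the 3 libraries high in muscle genes (2151R replicate 3, 2208L replicates 6 and 8), 2 with PBS samples alone as 2208L, and 7 with the leukocyte covariate. H2-K1 turned to -0.049 (median centring), -0.032 (quantile normalization), -0.64 (leukocyte covariate), -0.67 (3day nt alone as 2208L) and -0.10 (samples titled NT, nt or PBS), and ranged from -0.060 to 0.11 over fits that each left out a sample. Nlrc5 turned to -0.18 (leukocyte covariate) and -0.029 (samples titled NT, nt or PBS).

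For 2225L against 2208L, the number lower was 1 without the muscle-rich libraries, 1 in a fit of the 2 models alone, and from 1 (without the CP sample) to 6 (without the ROSEN sample) over leave-one-out fits, and 1 gene was higher with the leukocyte covariate. Psmb9 turned to 0.050 without the muscle-rich libraries. With the covariate, H2-K1 turned to 0.17, Tap1 to 0.22 and Psmb9 to 0.48. With PBS alone as 2208L they turned to 0.093, 0.12 and 0.41, and with 3day nt alone Tap2 turned to -0.44. Over leave-one-out fits, H2-K1 ranged from -1.17 to 0.58, H2-D1 from -2.38 to 0.28, Tap1 from -0.89 to 0.62, Tap2 from -0.36 to 1.03 and Psmb9 from -1.66 to 1.17.

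For 2225L against 2151R, the number higher was 1 without the muscle-rich libraries, 1 in a fit of the 2 models alone, 6 with the leukocyte covariate (1 lower), and from 0 to 4 over leave-one-out fits: 0 without the ROSEN sample, 4 without the CP sample and 1 without replicate 1, 3 or 4 of 2151R. The number lower ranged from 1 (without the CP sample) to 4. Tapbp turned to -0.012 without the muscle-rich libraries, and H2-K1 to 0.81 and H2-D1 to 0.44 with the covariate. Over leave-one-out fits H2-K1 ranged from -1.18 to 0.57, H2-D1 from -2.11 to 0.55, Tapbp from -0.40 to 0.43, Psmb8 from -0.32 to 1.51 and Psmb9 from -0.57 to 2.25.

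For 2208L PBS against 3day nt, requiring 1 log2 unit left 3 of the 10 genes lower and 2208 genes of all. Without the muscle-rich replicates 6 and 8, which leaves 1 3day nt sample assumed to vary like the PBS samples, 0 of the 10 and 98 of all genes passed, and with the leukocyte covariate 0 and 155. Over leave-one-out fits 5 to 7 of the 10 passed and 2379 to 6800 of all genes, against 5864 with all samples: 3886 without replicate 2, 3848 without 3, 2950 without 6 and 2379 without 8. Erap1 turned to 0.037 (quantile normalization) and 0.092 (covariate) and ranged from -0.22 to 0.055, and Nlrc5 turned to 0.16 (covariate).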

Other observations

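The 7 class I genes of chromosome 17 were set beside the 64 other genes between Tapbp and H2-D1, without H2 genes, and the 10 H2 genes of that stretch that are not among them. Those 10 were taken by symbol and position alone, so class II genes were not left out. The median difference of 2151R from 2208L was -1.08 for the 7 genes and 0.14 for their neighbours, and that of 2225L from 2208L was -0.30 and 0.63. In 2208L PBS against 3day nt it was -0.82 and -0.39, with -0.05 for all genes. The ROSEN sample of 2225L exceeded the CP sample by 1.75 at the 7 genes and by 0.17 at the neighbours. For 2225L against 2151R the 7 genes and the neighbours were alike, with medians of 0.59 and 0.58. The 10 other H2 genes had medians of -1.63 in 2151R and -1.23 in 2225L against 2208L, -1.28 in PBS against 3day nt and 1.30 in the ROSEN minus the CP sample. Their median was 0.72 for 2225L against 2151R, so they lay on the same side of 0 as the 7 genes in each of these comparisons. These medians are descriptions of genes in a shared region, and no test was made of them.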
